A study of Mus musculus with 36 samples.

Results

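Benzo-LXA4 in the kidney cortex of nondiabetic mice was examined by setting the 6 RNA-seq libraries labelled nondiabetic and benzo-lipoxin against the 6 labelled nondiabetic and vehicle, 12 of the 36 libraries of the series, over all 15,726 genes that could be tested. Both groups came from male ApoE−/− mice on a C57BL/6 background, which lack functional apolipoprotein E and are prone to atherosclerosis, so every control carried the deletion too and no wild-type group was part of the series. Vehicle was 0.1% ethanol, and benzo-LXA4 was given at 1.7 µg/kg, each by intraperitoneal injection 2 times a week. The labels describe mice of 6 weeks at the start, followed for 16 weeks and treated in weeks 10 to 16, in a design meant to intervene late. Streptozotocin (5 daily doses of 55 mg/kg) is named for the diabetic mice, and the labels do not say what the nondiabetic mice received in its place. The labels number the replicates without saying that each is a separate mouse, so p-values speak of differences among the samples as prepared and may carry technical variation. Expression is given in CPM, the count of a gene per 1,000,000 counts of its library after scaling the library sizes by TMM, and a log2 difference is benzo-LXA4 minus vehicle, so that 1 stands for a 2-fold higher level.

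Lipoxin A4 (LXA4) is a lipid made from arachidonic acid by lipoxygenases, often by one cell passing an intermediate to another, during the resolution of inflammation. It acts on the formyl peptide receptor FPR2 of leukocytes, epithelium and mesangial cells, slows the entry of neutrophils, promotes the clearance of dying cells by macrophages, and is inactivated within minutes by prostaglandin dehydrogenase and reductases. Benzo-LXA4 is a synthetic analog in which a benzene ring takes the place of part of the conjugated double bonds, a change meant to slow that inactivation. In the kidney, lipoxins are studied for their action on growth factor signalling, matrix production and the immediate early transcription factor EGR1. The comparison described here asks what the analog does to cortical gene expression when there is no diabetes for it to act on.

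Total counts ran from 22,222,844 to 29,998,197 per benzo-LXA4 library and from 10,086,698 to 32,657,959 per vehicle library. The shallowest, vehicle replicate 3, carried 17.7% of its counts on genes for ribosomal and small structural RNAs, against 2.01% to 6.02% in the other 11. This share leaves out Lars2 and the mitochondrial ribosomal RNA genes. The latter held a further 4.85% in vehicle replicate 3 and 7.95% to 10.97% in the other 11. Benzo-LXA4 replicate 1 carried 1.11% of its counts on a list of 31 brown fat and adipocyte genes, against 0.239% to 0.381% in the other 11. Every comparison was therefore repeated without these 2 libraries. Kidney markers were abundant in both groups: 37 proximal tubule markers summed to between 36,791 and 50,190 CPM with benzo-LXA4 and between 35,244 and 56,284 CPM with vehicle, and 24 podocyte markers to between 2322 and 2625 and between 1740 and 2447 CPM. The 15 urothelium and inner medulla genes tested summed to 574 CPM in vehicle replicate 2, against a median of 242 CPM over the vehicle libraries. With benzo-LXA4 their sum ranged from 244 to 409 CPM. Of the genes listed for skeletal muscle and adrenal gland only 2 each were among the genes analysed here. The adrenal pair, Fdx1 and Star, summed to 167 CPM in vehicle replicate 3. Its median was 51.9 CPM in the other 5 vehicle libraries, and its range 45.2 to 57.6 CPM in the benzo-LXA4 libraries. Other listed adrenal genes such as Cyp11a1 and Cyp11b1 were not analysed, so the pair does not establish adrenal tissue. Apoe itself, counted over the whole gene and so including any exons outside the disrupted part, stood at 1.78, 2.55 and 3.42 CPM (lowest, median and highest of 6) with benzo-LXA4 and at 1.70, 2.05 and 2.86 CPM with vehicle. The log2 difference was 0.28 with a 95% interval of −0.07 to 0.62, and it checks no label, since every group carried the deletion.

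No gene passed the test for a difference between benzo-LXA4 and vehicle. With edgeR's quasi-likelihood test and Benjamini-Hochberg adjustment over 15,726 genes, 0 genes (0%) had an adjusted p under 0.05, and the smallest adjusted p was 0.617. Without adjustment, 452 genes (2.87%) had a p under 0.05, of which 228 (1.45%) were higher and 224 (1.42%) lower with benzo-LXA4. The levels of all 6 benzo-LXA4 libraries lay outside the range of all 6 vehicle libraries in 17 genes (0.108%), 6 of them higher (0.0382%) and 11 lower (0.0699%). Among this many genes some separate by the chance order of the libraries alone, so a lack of overlap does not by itself mark a gene as changed. The median log2 difference over all genes was −0.02, with quartiles of −0.10 and 0.07.

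The spread between libraries left room for small changes in most genes and for large ones in few. The 95% interval of the log2 difference lay between −1 and 1, that is within a 2-fold change in either direction, for 14,404 genes (91.6%), and within a 1.5-fold change for 11,220 (71.3%). Its half-width had a median of 0.30, a factor of 1.23. Among genes with a mean of at least 5 CPM the interval stayed within 2-fold for 10,806 of 11,061, and among genes below that level for 3598 of 4665, so for low genes a change of that size was less often bounded. Without benzo-LXA4 replicate 1 and vehicle replicate 3, 0 genes passed (smallest adjusted p 0.9999) and 234 (1.49%) had an unadjusted p under 0.05, of which 111 (0.706%) were higher and 123 (0.782%) lower; 127 were among the 452. The unadjusted count was 720 without vehicle replicate 2, 746 without vehicle replicate 4, and 865 without diabetic lipoxin replicate 6, a library with 56.8% structural RNA that entered the shared estimate of spread. In each of these fits 0 genes passed after adjustment. DESeq2 called 2 genes, Kcnk3 and Thrsp (both adjusted p = 0.0078), and limma-voom with quality weights called 0.

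**Figure D1:**
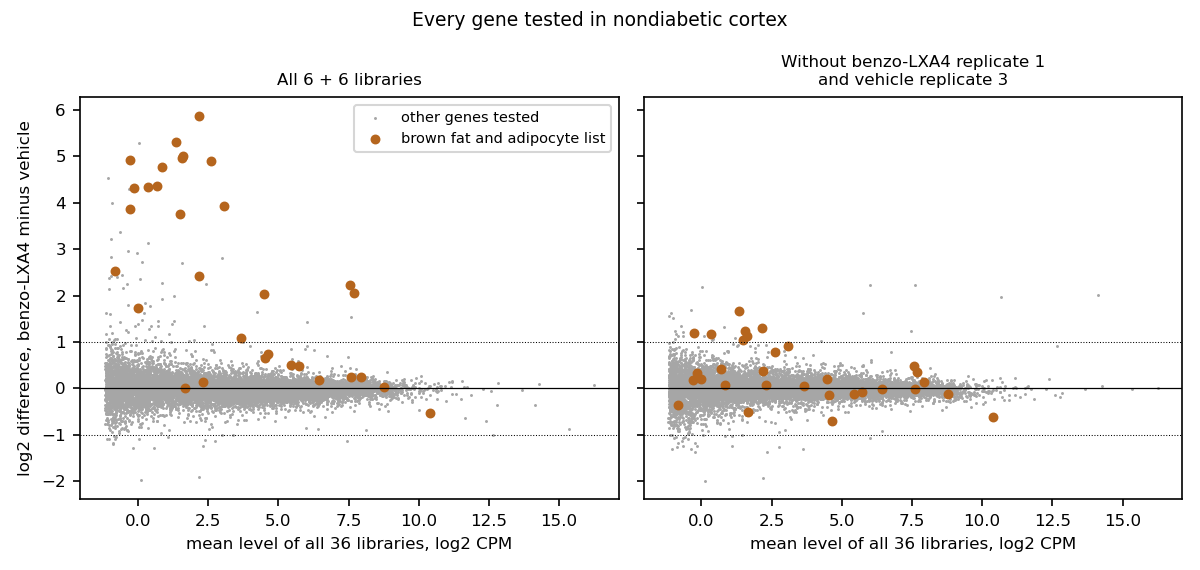
Log2 difference of benzo-LXA4 from vehicle (vertical axis) against the mean level over all 36 libraries in log2 CPM (horizontal axis), 1 point per gene tested, with all 12 libraries on the left and without benzo-LXA4 replicate 1 and vehicle replicate 3 on the right. Dotted lines mark a 2-fold difference; the brown fat and adipocyte genes have a median of 2.23 on the left and 0.20 on the right.

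The largest differences belonged to genes of brown fat, and 1 library held them. Brown adipocytes burn fatty acids for heat through the uncoupling protein UCP1, and perirenal fat, which surrounds the kidney, contains such cells in rodents. Ucp1 (ENSMUSG00000031710; chromosome 8, 83,290,352 to 83,298,452, GRCm38) had 3394 counts in benzo-LXA4 replicate 1, 115 in replicate 2, 1 in each of replicates 3 and 4, and 0 in replicates 5 and 6. In the vehicle libraries it had 7, 41, 0, 0, 1 and 0 counts, in order of replicate number. Replicate 1 was therefore far above the other 11, with benzo-LXA4 replicate 2 and vehicle replicate 2 next.

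The same order held for other defining adipocyte genes. Cidea, which encodes a lipid droplet protein, reached 65.6 CPM in benzo-LXA4 replicate 1 and 5.04 CPM in replicate 2, against at most 1.5 CPM in any vehicle library. Plin1, the perilipin that coats fat droplets, reached 74.5 and 5.49 CPM against at most 2.18 CPM, and the adipokine gene Adipoq 37.4 and 2.14 CPM against at most 1.26 CPM. Cox8b, the cytochrome oxidase subunit of brown fat, reached 18.6 and 1.47 CPM against at most 0.533 CPM. Each of these genes was at or below 0.407 CPM in benzo-LXA4 replicates 3 to 6, so the groups overlapped.

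Of the 31 brown fat and adipocyte genes tested, 22 had an unadjusted p under 0.05 with a higher level and 0 with a lower one, against 1.45% of all genes in that direction, and 0 passed after adjustment. Their summed level was 10,883 CPM in benzo-LXA4 replicate 1 and between 2303 and 3907 CPM in the other 11 libraries. This floor comes from members that the kidney also makes, such as Pck1 and Lpl, for which no group stood apart: the log2 differences were −0.53 (95% interval −1.06 to 0.01) and 0.04 (−0.52 to 0.60). The median log2 difference of the list was 2.23 with all 12 libraries and 0.20 without benzo-LXA4 replicate 1 and vehicle replicate 3, when 0 members were higher and 1, Pck1, was lower at an unadjusted p under 0.05. Without the 3 libraries that held the most Ucp1 counts, benzo-LXA4 replicates 1 and 2 and vehicle replicate 2, the median was −0.11. In bulk tissue, more cells of a type and more RNA per cell cannot be told apart.

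The 12 higher genes with the smallest p followed the same library. Kcnk3, a background potassium channel (ENSMUSG00000049265; chromosome 5, 30,588,170 to 30,625,271), stood at 55.9 CPM in benzo-LXA4 replicate 1, at 3.79 CPM in replicate 2 and between 0.859 and 1.18 CPM in the other 4, against 0.427, 0.557 and 1.89 CPM (lowest, median, highest) with vehicle. Its log2 difference was 3.75 (SE 0.84, adjusted p = 0.617, above the vehicle mean in 6 of 6 libraries) and 1.05 without the 2 libraries (unadjusted p = 0.067). Thrsp, a thyroid hormone-responsive regulator of lipogenesis, stood at 184 CPM in replicate 1 and at 1.41 to 14.1 CPM in the other 5, against 1.31 to 4.55 CPM, with a log2 difference of 3.92 and of 0.92 without the pair. Fasn, fatty acid synthase, stood at 2665 CPM against 92.7 to 283.8 CPM in the other benzo-LXA4 libraries and 95.1 to 178 CPM with vehicle.

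Mrap, a melanocortin receptor accessory protein, Adrb3, the adrenergic receptor of adipocytes, Aoc3, the semicarbazide-sensitive amine oxidase, Pnpla3, a lipase of lipid droplets, Ppp1r3b, a glycogen-targeting phosphatase subunit, Nat8l, which makes N-acetylaspartate in brown fat, and Rbp4, the retinol carrier, were 7 further genes of this kind. Their highest value was in benzo-LXA4 replicate 1 in every case, from 8.84 CPM in Rbp4 to 25.2 CPM in Adrb3. Adam12, a membrane metalloprotease linked to matrix remodelling (ENSMUSG00000054555; chromosome 7, 133,883,199 to 134,232,146), was less tied to it. Its levels were 34.1, 46.0 and 127 CPM with benzo-LXA4 and 25.7, 32.1 and 43.4 CPM with vehicle, with 6 of 6 libraries above the vehicle mean. The log2 difference was 0.84 (95% interval 0.41 to 1.27, adjusted p = 0.617) and 0.43 without the 2 libraries (unadjusted p = 0.013).

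Among all genes, 85 had a fitted level at least 2-fold higher with benzo-LXA4 and 18 at least 2-fold lower, and in 74 of the 85 the highest value was in benzo-LXA4 replicate 1. Without the 2 libraries the numbers were 33 and 24. Of the 228 genes with an unadjusted p under 0.05 and a higher level, 144 had their highest value in replicate 1. Of the 100 genes with the smallest p, 78 were higher with all 12 libraries and 44 without the 2.

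**Figure D2:**
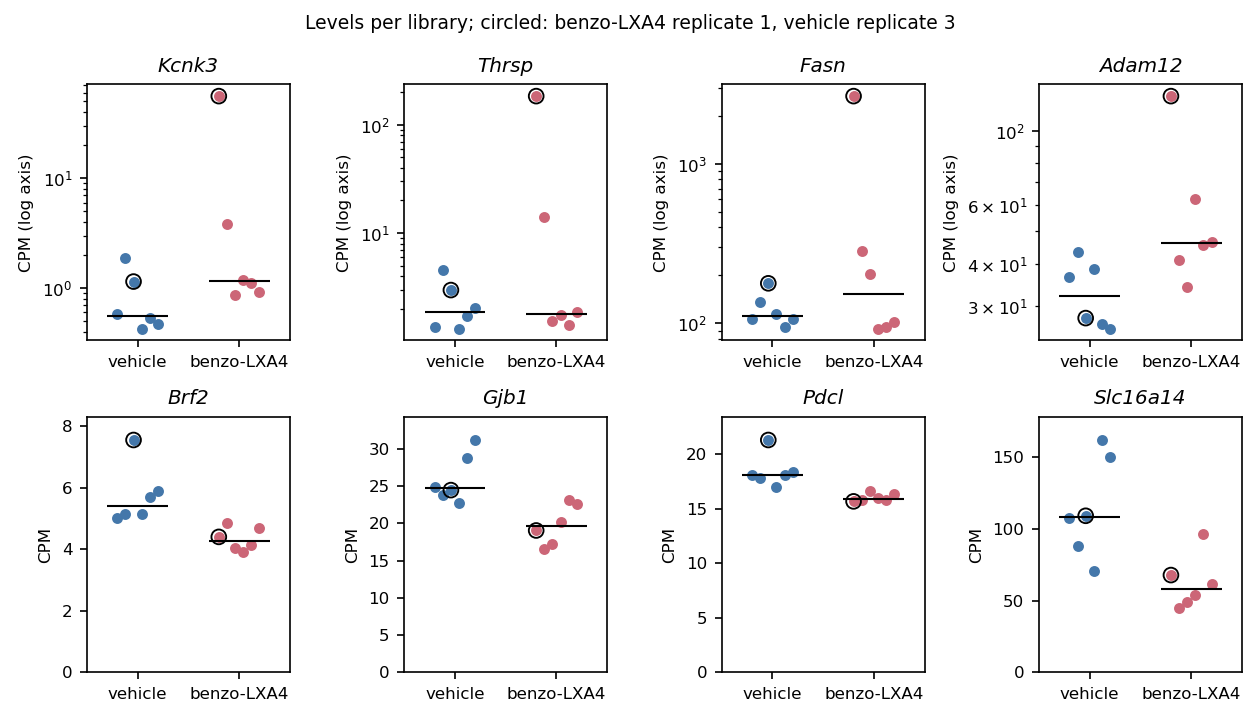
CPM per library of 4 genes with small p and a higher level (upper panels, log axis) and 4 with small p and a lower level (lower panels, linear axis from 0) in vehicle and benzo-LXA4 mice; lines are medians of 6, and circles mark benzo-LXA4 replicate 1 and vehicle replicate 3. Kcnk3, Thrsp and Fasn are far higher in the circled benzo-LXA4 library than in the others, whereas Brf2 and Pdcl are lower in each benzo-LXA4 library than in any vehicle library.

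The 12 lower genes with the smallest p had log2 differences from −1.04 to −0.20. Brf2, a subunit of an RNA polymerase III initiation factor (ENSMUSG00000031487; chromosome 8, 27,123,364 to 27,128,680), stood at 3.90, 4.27 and 4.86 CPM with benzo-LXA4 and at 5.02, 5.42 and 7.55 CPM with vehicle. The groups did not overlap. The log2 difference was −0.39 (95% interval −0.61 to −0.17, adjusted p = 0.617) and −0.31 without the 2 libraries (unadjusted p = 0.0077).

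Gjb1, connexin of hepatocyte and proximal tubule gap junctions (ENSMUSG00000047797; chromosome X, 101,376,378 to 101,385,629), stood at 16.5, 19.6 and 23.2 CPM with benzo-LXA4 and at 22.8, 24.7 and 31.2 CPM with vehicle. Only benzo-LXA4 replicate 5, the highest of its group, reached into the vehicle range. The log2 difference was −0.40 (−0.62 to −0.17, adjusted p = 0.617), and it was −0.40 without the 2 libraries as well. Slc16a14, an orphan monocarboxylate transporter of the kidney, stood at 44.8, 57.8 and 96.1 CPM against 70.3, 108 and 162 CPM, a log2 difference of −0.88 (−1.47 to −0.28) with overlap between the groups.

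Pdcl, a phosducin-like chaperone of G protein assembly, stood between 15.7 and 16.6 CPM in all benzo-LXA4 libraries and between 17.0 and 21.3 CPM in all vehicle libraries (log2 −0.20). Nufip1, which takes part in assembling small nucleolar ribonucleoproteins, stood between 12.2 and 13.6 against 13.7 and 17.7 CPM (log2 −0.26). The groups did not overlap in either gene, and in both, as in Brf2, the highest value was in vehicle replicate 3. Spc25, a kinetochore component, stood at 6.64, 7.98 and 11.3 against 6.87, 12.4 and 16.4 CPM (log2 −0.56).

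The other lower genes with the smallest p were Mis18a, a centromere licensing factor (log2 −0.60), Mettl2, a tRNA methyltransferase (−0.26), Gpat2, a mitochondrial acyltransferase (−0.76), Myo1g, a myosin of blood cells (−0.55), 1600002H07Rik (−0.42) and Gm42722 (−1.04), which is annotated as antisense. In each of them 0 of 6 benzo-LXA4 libraries lay above the vehicle mean. Gpat2 had the larger difference without the 2 libraries (−1.0, unadjusted p = 4e-04). The unadjusted p of the 12 lower genes ran from 0.001 in Brf2 to 0.0055 in Gm42722, against 8.4e-05 in Kcnk3.

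Some genes separated the groups by a narrow margin; those named in this paragraph were chosen after their values were seen. Nedd4, a ubiquitin ligase that acts on sodium channels and growth factor receptors, stood between 407 and 418 CPM in the benzo-LXA4 libraries and between 375.5 and 403 CPM in the vehicle libraries, without overlap, but its log2 difference was only 0.07 with an interval of −0.05 to 0.20. Pfkfb2, the kinase that makes the activator of phosphofructokinase, stood between 1.26 and 1.62 against 0.541 and 1.21 CPM (log2 0.55, unadjusted p = 0.0151). Nt5c2, a cytosolic nucleotidase, stood between 172 and 262 against 130 and 171 CPM (log2 0.37, unadjusted p = 0.0029). Siae, a sialic acid esterase, stood between 21.6 and 27.3 against 27.5 and 30.4 CPM (log2 −0.19).

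Without benzo-LXA4 replicate 1 and vehicle replicate 3, 71 genes had no overlap between 5 and 5 libraries, a count that the smaller groups make easier to reach. Among the higher genes with small p, picked after their values were seen as was Mreg, were then Gabbr2, a GABA-B receptor subunit (log2 0.76, unadjusted p = 0.0015), Igsf10, an immunoglobulin superfamily protein (0.82, 0.0035), and Steap3, a ferrireductase (0.47, 0.0038). Gabbr2 also separated the full groups, at 1.34 to 2.27 against 0.754 to 1.26 CPM. The lower ones included Mreg, a regulator of melanosomes and phagosomes (−0.72, 0.0012), and Cyp2d12, a cytochrome P450 (−1.07, 0.0034), whose reads may be shared with the similar genes of its family. All had an adjusted p of 0.9999.

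The genes that make, inactivate and sense lipoxins and related lipids were measured next. Of 32 enzymes listed, 27 were tested. Of these, 0 were higher and 1 lower at an unadjusted p under 0.05, against 1.45% and 1.42% of all genes. The median log2 difference was −0.03, against −0.02 over all genes. Of 22 receptors listed, 12 were tested and 0 had an unadjusted p under 0.05 (median 0.06). The formyl peptide receptor genes Fpr1, Fpr2 and Fpr3, and the synthesis genes Alox15 and Ptgs2, were not among the genes analysed here, so the known receptor of the compound gives no value.

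Alox5, the lipoxygenase that starts leukotriene and lipoxin synthesis, stood at 0.223, 0.573 and 0.661 CPM with benzo-LXA4 and at 0.346, 0.458 and 0.541 CPM with vehicle. These levels are low, and the interval of the log2 difference of 0.16 ran from −0.50 to 0.82. Its activating protein Alox5ap differed by 0.21 (−0.12 to 0.55), and Alox12, the platelet-type lipoxygenase that can complete lipoxin synthesis, by 0.11 (−0.31 to 0.53). For Lta4h, which makes leukotriene B4, the interval was narrower, at −0.01 (−0.33 to 0.31).

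Downstream enzymes showed the same. Ltc4s, which makes cysteinyl leukotrienes, differed by −0.31 (−0.77 to 0.15), the cyclooxygenase gene Ptgs1 by 0.01 (−0.21 to 0.23) and the prostaglandin E synthase gene Ptges by −0.12 (−0.39 to 0.14). Among the inactivating enzymes, Hpgd, the dehydrogenase that acts first on lipoxins and prostaglandins, stood at 7.25, 8.82 and 10.4 CPM with benzo-LXA4 and at 7.09, 9.34 and 10.2 CPM with vehicle (log2 −0.05, −0.38 to 0.28). Ptgr1, the reductase that follows it (ENSMUSG00000028378; chromosome 4, 58,965,439 to 58,987,119), was the 1 enzyme with an unadjusted p under 0.05. It stood at 4.99, 7.17 and 8.36 against 5.91, 8.21 and 13.5 CPM, a log2 difference of −0.30 (−0.59 to −0.01, unadjusted p = 0.045). The highest value was in vehicle replicate 3, and without that library and benzo-LXA4 replicate 1 the difference was −0.16 (unadjusted p = 0.25). Ptgr2, its paralog, differed by −0.13 (−0.29 to 0.02), and Ephx2, the soluble epoxide hydrolase, by −0.07 (−0.33 to 0.20).

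Receptors of the same lipids were spread around 0. Cysltr1, at which LXA4 can act as an antagonist, differed by 0.32 (−0.27 to 0.91), and Cysltr2 by −0.21 (−0.52 to 0.11). Tbxa2r, the thromboxane receptor, differed by −0.30 (−0.75 to 0.14), and Cmklr1, a receptor for the resolving lipid resolvin E1 and for chemerin, by 0.14 (−0.13 to 0.40). Ptger3, a prostaglandin E receptor of the distal nephron, ranged from 63.6 to 206 CPM within the benzo-LXA4 group and from 44.1 to 202 CPM within the vehicle group, so its log2 difference of 0.20 had an interval of −0.58 to 0.98. Anxa1, which encodes the other ligand class of the formyl peptide receptors, differed by 0.19 (−0.32 to 0.71).

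**Figure D3:**
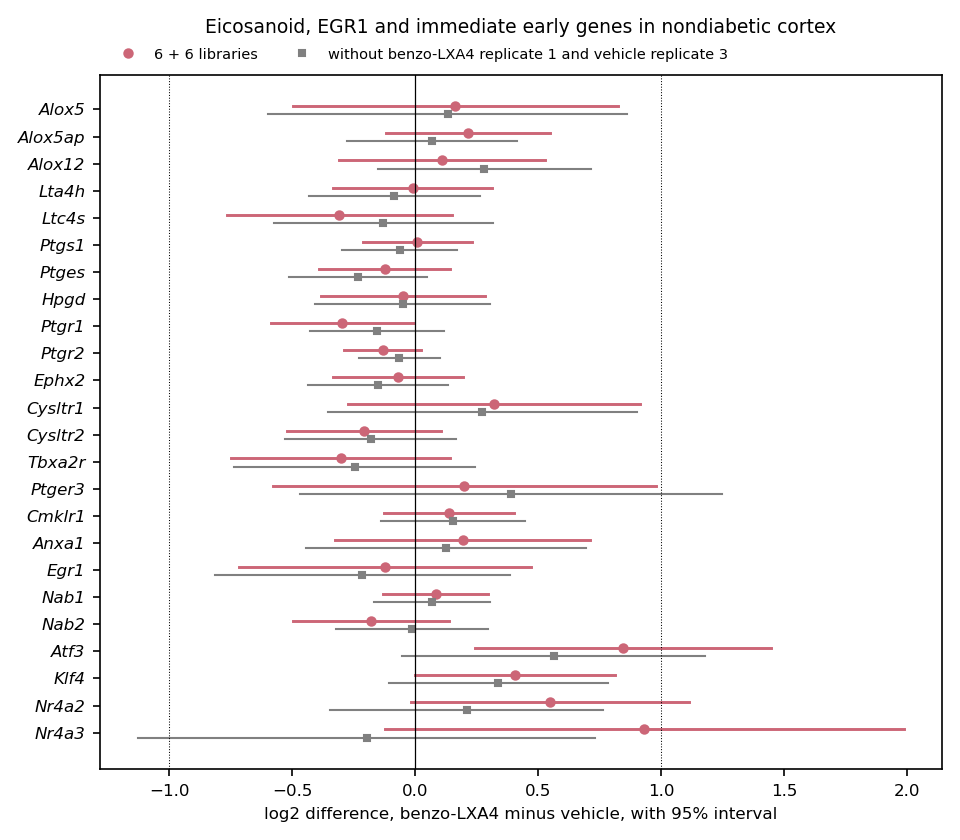
Log2 difference of benzo-LXA4 from vehicle with its 95% interval (horizontal axis) for genes of eicosanoid synthesis, breakdown and sensing, for Egr1 and its corepressors, and for 4 immediate early genes; red, all 12 libraries, and grey, without benzo-LXA4 replicate 1 and vehicle replicate 3. Dotted lines mark a 2-fold difference. With all libraries the intervals of Ptgr1 and Atf3 leave out 0, and neither gene passed after adjustment.

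Egr1 (ENSMUSG00000038418; chromosome 18, 34,859,823 to 34,864,984) encodes the zinc finger factor that growth factors, glucose and injury induce within minutes. It stood at 2.64, 2.97 and 4.55 CPM with benzo-LXA4 and at 1.144, 3.82 and 6.76 CPM with vehicle. The benzo-LXA4 values all fell inside the vehicle range, and 2 of 6 lay above the vehicle mean. The log2 difference was −0.12 (95% interval −0.72 to 0.47), and it was 0.15 without vehicle replicate 6, the highest library. The EGR1 corepressor genes Nab1 and Nab2 differed by 0.08 (−0.13 to 0.30) and −0.18 (−0.50 to 0.14). Of 27 tested EGR1 corepressors and genes often described as EGR1 targets, 1, the fibronectin gene Fn1, had an unadjusted p under 0.05. Over all genes the share was 2.87%. The median of the list was 0.02, and 0 members had such a p without the 2 libraries. Egr2 and Egr3 were not among the genes analysed here.

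Of 24 immediate early genes tested, 1 was higher at an unadjusted p under 0.05 and 0 lower, against 1.45% and 1.42% of all genes. The median was 0.11, and 0.02 without the 2 libraries. The 1 gene was Atf3, a stress-induced transcription factor, at 0.891, 1.85 and 3.72 CPM with benzo-LXA4 and 1.0, 1.1 and 1.31 CPM with vehicle. Its log2 difference was 0.84 (0.24 to 1.45, unadjusted p = 0.0074), and 0.56 without the 2 libraries (unadjusted p = 0.072). Klf4, a factor of epithelial and endothelial differentiation, differed by 0.40 (unadjusted p = 0.051). Nr4a3, an orphan nuclear receptor, stood at 3.75 CPM in benzo-LXA4 replicate 1 and between 0.159 and 0.610 CPM in the other 5, against 0.348 to 0.848 CPM with vehicle. Its difference of 0.93 became −0.20 without the 2 libraries.

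Matrix genes lay slightly on the higher side. Of 43 collagen and extracellular matrix genes tested, 34 had a log2 difference above 0 and 9 below. The median was 0.16 (0.22 without the 2 libraries), against −0.02 over all genes. Between libraries of a group the median level of this list had an SD of 0.14 in log2 units, so its members are not separate replicates. Only 1 member, Fn1, had an unadjusted p under 0.05, against 2.87% of all genes. It stood at 24.7, 29.2 and 33.8 CPM with benzo-LXA4 and at 18.3, 20.7 and 32.1 CPM with vehicle (log2 0.38, 0.00 to 0.77), and differed by 0.35 without the 2 libraries (unadjusted p = 0.105). Vehicle replicate 5, at 32.1 CPM, was as high as the upper benzo-LXA4 libraries, and the other 5 vehicle libraries were below all 6. Fbln2, a basement membrane fibulin, differed by 0.49, Mmp2, a gelatinase, by 0.44 and Postn, a matricellular protein of injured kidney, by 1.1; Postn differed by 0.08 without the 2 libraries. Of 33 genes of TGF-beta and BMP signalling, 1, Tgfb3 (log2 0.41, 0.00 to 0.82), had an unadjusted p under 0.05, again against 2.87%. The median was 0.02, and without the 2 libraries 0 members had such a p.

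Of 26 cytokines, chemokines and NF-kB targets tested, 0 had an unadjusted p under 0.05, and the interval lay within 2-fold for 22, against 91.6% of all genes; the interferon-induced chemokine gene Cxcl10 differed by −0.25 (−0.76 to 0.25). Of 38 interferon response genes 0 had an unadjusted p under 0.05 (1 was lower without the 2 libraries), and the interval of every one of the 38 lay within 2-fold. Of 26 macrophage and myeloid markers, 10 had a log2 difference above 0 and 16 below, with a median of −0.03 (−0.06 without the 2 libraries). An unadjusted p under 0.05 was found for 0 of the 26, and 25 intervals lay within 2-fold. Among them Csf1r, the receptor for the macrophage growth factor, differed by 0.17 (−0.07 to 0.41), or by 0.27 without the 2 libraries (unadjusted p = 0.037), and the lysosomal macrophage protein gene Cd68 by 0.48 (−0.09 to 1.04).

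Complement and coagulation genes held 5 of 39 tested with an unadjusted p under 0.05, all higher, against 1.45% of all genes in that direction. Without benzo-LXA4 replicate 1 and vehicle replicate 3 the count was 1, C3. Of the 5, Cfd, adipsin, is also on the adipocyte list and stood at 150 CPM in benzo-LXA4 replicate 1 against 0 to 7.67 CPM in the other 5. C3, the central complement component, stood at 78.2 CPM in replicate 1 and at 62.4 CPM in replicate 3, between 5.57 and 13.7 CPM in the other 4 and between 7.30 and 12 CPM in the vehicle libraries. Its log2 difference was 1.64 (0.70 to 2.58, adjusted p = 0.649) and rested on 2 of 6 libraries; without replicate 1 and vehicle replicate 3 it was 1.03 (unadjusted p = 0.031). Cfp, properdin, differed by 0.39 with all libraries and 0.31 without the 2 (unadjusted p = 0.088). Fgb, a fibrinogen chain that injured tubules also make, differed by 1.34 and 0.90 (unadjusted p = 0.18 without the 2).

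Immunoglobulin genes lay on the lower side: 10 of the 11 tested had a log2 difference below 0, with a median of −0.33 and of −0.46 without the 2 libraries. Between libraries of a group, the median level of this list had an SD of 0.27 in log2 units. Ighm, the IgM heavy chain, stood at 1.92, 2.58 and 3.17 CPM with benzo-LXA4 and at 2.08, 4.74 and 11.7 CPM with vehicle, where replicates 1, 2 and 4 were high. Its log2 difference was −1.24 (−2.21 to −0.28, unadjusted p = 0.013). Jchain, which joins IgM and IgA subunits, differed by −0.68 (−1.46 to 0.10). Of 12 T, NK and B cell markers tested, 0 had an unadjusted p under 0.05.

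Markers of the nephron segments gave few small p-values. Of 37 proximal tubule markers 0 had an unadjusted p under 0.05 with all libraries (1 higher and 1 lower without the 2), 29 were below 0, and the median was −0.10. Between libraries of a group, the median level of this list had an SD of 0.22 in log2 units. Slc5a2, the glucose transporter of the early proximal tubule, stood at 158, 308 and 395 CPM with benzo-LXA4 and at 184, 414 and 498 CPM with vehicle (log2 −0.34, −0.83 to 0.16). Miox, which oxidises inositol, differed by −0.30 (−0.66 to 0.06) and Slc27a2, a fatty acid transporter, by −0.22 (−0.47 to 0.04). Pck1, which makes glucose in this segment, stood at 784, 1160 and 1775 CPM against 1042, 1767 and 2247 CPM.

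Of 22 collecting duct markers 1, the water channel gene Aqp3 (log2 −0.30), was lower at an unadjusted p under 0.05, against 1.42% of all genes. Its highest value, 92.7 CPM, was in vehicle replicate 3. Without the 2 libraries Aqp3 differed by −0.13 (unadjusted p = 0.34). Of 24 podocyte markers 21 were above 0 with a median of 0.14 (0.06 without the 2 libraries), and every one of the 24 intervals lay within 2-fold. The median level of this list had an SD of 0.09 in log2 units between libraries of a group. Of 23 endothelial and 21 loop of Henle and distal convoluted tubule markers 0 had an unadjusted p under 0.05.

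Smooth muscle, pericyte and juxtaglomerular markers had 3 of 19 with an unadjusted p under 0.05, all higher, against 1.45% of all genes in that direction. Their median log2 difference was 0.18. Between libraries of a group the median level of this list had an SD of 0.17 in log2 units, so its members are not separate replicates. The count was 2 without the 2 libraries, of which only Myl9 was among the 3. Myl9, the regulatory myosin light chain of smooth muscle, stood at 11.2, 13.1 and 17.1 CPM with benzo-LXA4 and at 9.67, 10.5 and 13.6 CPM with vehicle, with 6 of 6 above the vehicle mean. The log2 difference was 0.33 (0.09 to 0.58, unadjusted p = 0.0086), and 0.34 without the 2 libraries. Rgs5, a pericyte regulator of G protein signalling, differed by 0.35 and by 0.16 without them. Ren1, renin, stood at 13.7, 21.4 and 47.0 CPM against 6.93, 16.9 and 25.4 CPM (log2 0.71, 0.03 to 1.38), and was the 1 member of 19 in the renin-angiotensin and kinin list with an unadjusted p under 0.05. Without the 2 libraries Ren1 differed by 0.53 (unadjusted p = 0.14), and the 1 member with a p under 0.05 was instead Agt, angiotensinogen, at 0.55 (unadjusted p = 0.031). With all libraries Agt differed by 0.41 (−0.04 to 0.86) and Acta2, smooth muscle actin, by 0.47 (−0.04 to 0.99).

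Metabolic and stress genes gave few small p-values outside the library with fat transcripts. Of 22 fatty acid synthesis genes 7 were higher at an unadjusted p under 0.05 with all libraries, against 1.45% of all genes in that direction. Without the 2 libraries 0 were, against 0.706%. Acaca, acetyl-CoA carboxylase, stood at 321 CPM in benzo-LXA4 replicate 1 and between 48.8 and 82.8 CPM in the other 5. Scd1, the stearoyl-CoA desaturase, stood at 2710 CPM against 116 to 325 CPM. Of 38 fatty acid oxidation and PPAR-alpha genes, 48 nuclear respiratory chain genes, 26 p53 targets, 38 cell cycle genes and 31 genes of the unfolded protein response, 0 had an unadjusted p under 0.05 with all libraries. Their medians were −0.06, −0.08, 0.03, −0.08 and −0.03. Cdkn1a, the p53-induced cell cycle inhibitor p21, stood at 3.48, 5.12 and 9.49 CPM against 2.75, 3.73 and 6.59 CPM (log2 0.43, −0.08 to 0.94).

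Of 34 targets of NRF2, the factor of the antioxidant response, 2 were higher at an unadjusted p under 0.05, against 1.45% of all genes, and 0 without benzo-LXA4 replicate 1 and vehicle replicate 3. They were G6pdx, at log2 0.27 with all libraries and 0.14 without the 2, and Nfe2l2, the gene of NRF2 itself, at 0.24 (0.01 to 0.46) and 0.16. G6pdx stood at 37.2 CPM in benzo-LXA4 replicate 1 and between 20.7 and 24.8 CPM in the other 5. The median of the list was −0.02. Nfe2l2 is also on the aryl hydrocarbon receptor list, where it and the target Cyp1a1 (0.68, 0.01 to 1.35) were 2 of 7 with an unadjusted p under 0.05. None of the 7 had one once the 2 libraries were left out, and Cyp1a1 differed by 0.34 (unadjusted p = 0.31). Hsd11b1, which regenerates active glucocorticoid, stood at 52.8, 67.9 and 77.2 CPM against 40.8, 50.8 and 60.1 CPM. Its log2 difference was 0.39 (0.14 to 0.64, adjusted p = 0.876, 6 of 6 above the vehicle mean) and 0.40 without the 2 libraries.

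Over all 45 lists with at least 5 tested members, the median log2 difference lay within 0.2 of 0 in 42 lists with all 12 libraries and in 40 without the 2. The 3 exceptions with all libraries were the brown fat, erythroid and immunoglobulin lists. The lists together held 1015 genes, of which 43 were higher and 5 lower at an unadjusted p under 0.05. Outside the brown fat list they held 984, of which 21 were higher and 5 lower, a share of 2.64% against 2.87% of all genes tested. Without the 2 libraries, 11 of the 984 were higher and 6 lower, a share of 1.73% against 1.49%.

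**Figure D4:**
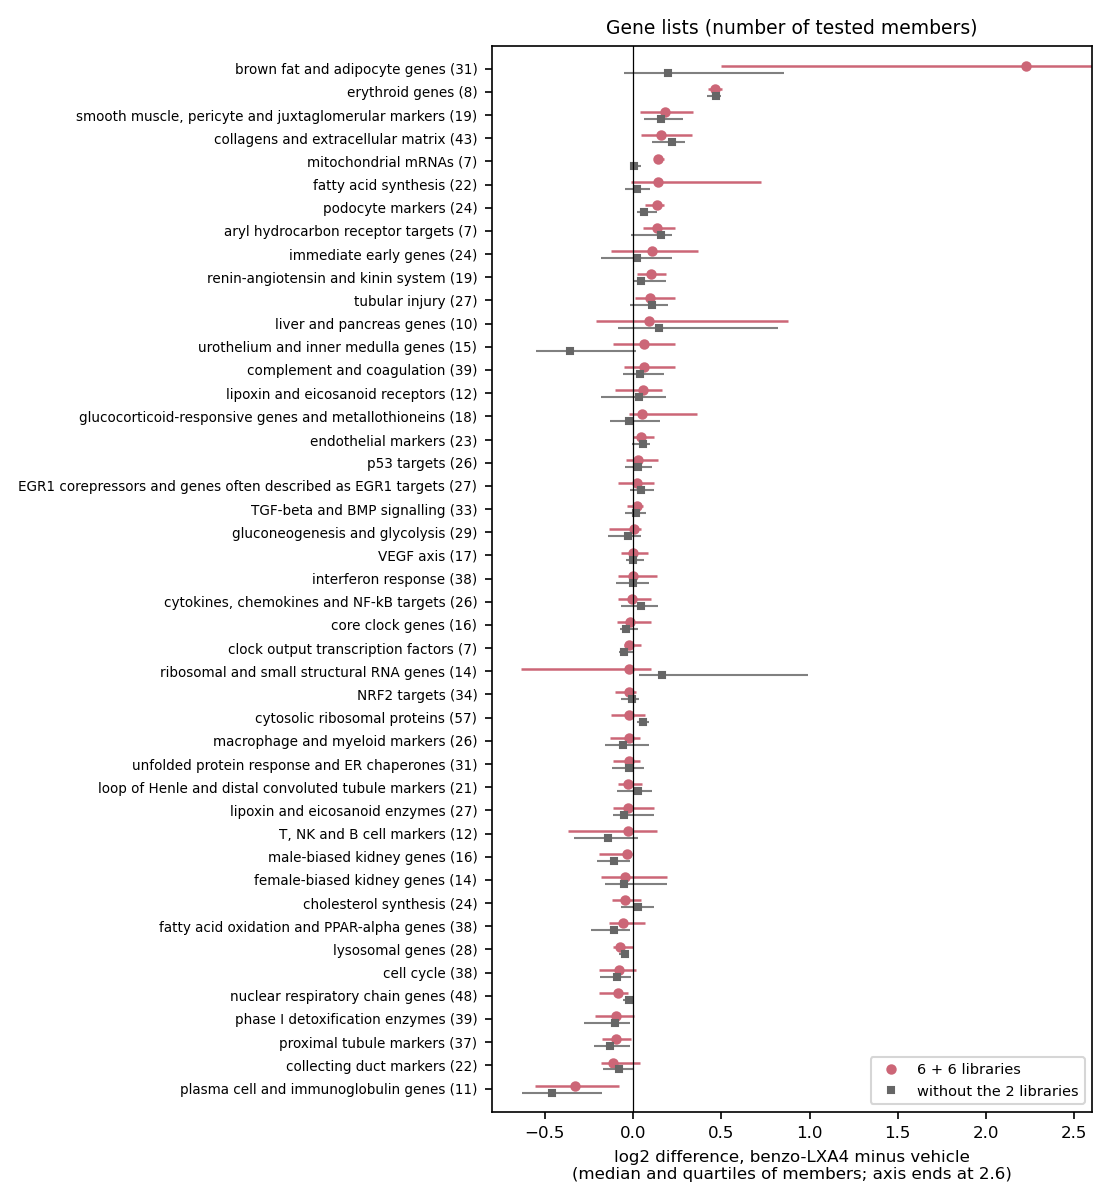
Median (symbol) and quartiles (line) of the log2 differences of the members of 45 gene lists, with all 12 libraries in red and without benzo-LXA4 replicate 1 and vehicle replicate 3 in grey; the number of tested members follows each name, and the upper brown fat quartile with all libraries, 4.35, lies past the end of the axis. The erythroid median is 0.46 with all libraries and 0.47 without the 2, whereas the brown fat median goes from 2.23 to 0.20.

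The erythroid list was the 1 besides brown fat with a median above 0.2 when all libraries were used. Globin mRNA in a solid tissue comes mainly from reticulocytes in its blood, and the alpha and beta globin genes are switched on together in red cell precursors through shared promoter elements, among them a CCAAT box and a CACCC box bound by the factor KLF1. The promoters of an alpha and a beta globin gene are shown because the values that follow turn on these genes. They are RefSeq windows on GRCm38.p6, from 250 bases before to 50 after the start, at chr11:32296242-32296541 (plus strand, Hba-a2) and chr7:103827879-103828178 (minus strand, Hbb-bs), with every CCAAT and CACCC, searched on both strands, in capitals.
Hba-a2: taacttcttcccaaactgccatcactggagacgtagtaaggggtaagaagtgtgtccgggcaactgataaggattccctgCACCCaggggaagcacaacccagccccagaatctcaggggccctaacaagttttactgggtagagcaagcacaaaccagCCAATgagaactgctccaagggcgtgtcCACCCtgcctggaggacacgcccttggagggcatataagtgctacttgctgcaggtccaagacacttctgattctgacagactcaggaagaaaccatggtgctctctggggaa
Hbb-bs: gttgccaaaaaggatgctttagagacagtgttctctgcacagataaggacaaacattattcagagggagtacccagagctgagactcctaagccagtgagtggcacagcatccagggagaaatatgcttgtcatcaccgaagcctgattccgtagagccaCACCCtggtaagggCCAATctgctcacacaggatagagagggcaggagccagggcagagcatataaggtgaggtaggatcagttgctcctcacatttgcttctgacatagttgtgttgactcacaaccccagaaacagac
In Hba-a2 the CCAAT began at position −91 and the CACCC copies at −170 and −63, and in Hbb-bs the CCAAT began at −76 and the CACCC at −90, counted from the start. The letters CCAAT occurred in 37.4% of 32,851 such windows, CACCC in 57.5% and both in 20.9%, so their presence is common. The window of Hba-a1 was identical to that of Hba-a2 over the 297 bases they share when shifted by 3, and the authors' counting could divide reads between these near-identical genes.

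Of 8 erythroid genes tested, 7 had a log2 difference above 0, and 2, Hba-a1 and Hba-a2, had an unadjusted p under 0.05, against 1.45% of all genes for higher levels. Without the 2 libraries the count was 0, while the median was 0.46 with all libraries and 0.47 without them. The median level of this list had an SD of 0.37 in log2 units between libraries of a group. Hba-a2 (ENSMUSG00000069917) stood at 29.6, 53.8 and 62.9 CPM with benzo-LXA4 and at 20.7, 35.6 and 55.4 CPM with vehicle, a log2 difference of 0.49 (0.02 to 0.96, unadjusted p = 0.042), and 0.46 without the 2 libraries (unadjusted p = 0.086). Hbb-bs (ENSMUSG00000052305) stood at 85.6, 156 and 182 CPM against 62.2, 107 and 177 CPM, a difference of 0.44 (−0.12 to 1.00). Benzo-LXA4 replicate 3 was the lowest of its group and vehicle replicate 6 the highest of its own in both genes, so the groups overlapped. Hba-a1 differed by 0.59, or 0.50 without the 2 libraries (unadjusted p = 0.105), Hbb-bt by 0.50 and Alas2, the first enzyme of haem synthesis in red cells, by 0.51. The share of blood in each sample was not analysed here, and its part in these values was not tested.

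In diabetic mice the globin values lay on the other side of vehicle. With benzo-LXA4 and diabetes Hba-a2 stood at 15.8, 25.5 and 36.8 CPM, and with vehicle and diabetes at 37.2, 46.9 and 68.7 CPM, without overlap, a log2 difference of −0.98 (unadjusted p = 1.9e-04, adjusted p = 0.187). The interaction, that is the difference under diabetes minus the difference without it, was −1.47 for Hba-a2 (95% interval −2.14 to −0.80, unadjusted p = 8.4e-05) and −1.65 for Hbb-bs (−2.44 to −0.86, unadjusted p = 1.7e-04). Both had an adjusted p of 0.888, so neither passed. Without the 2 libraries the values were −1.43 and −1.61.

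**Figure D5:**
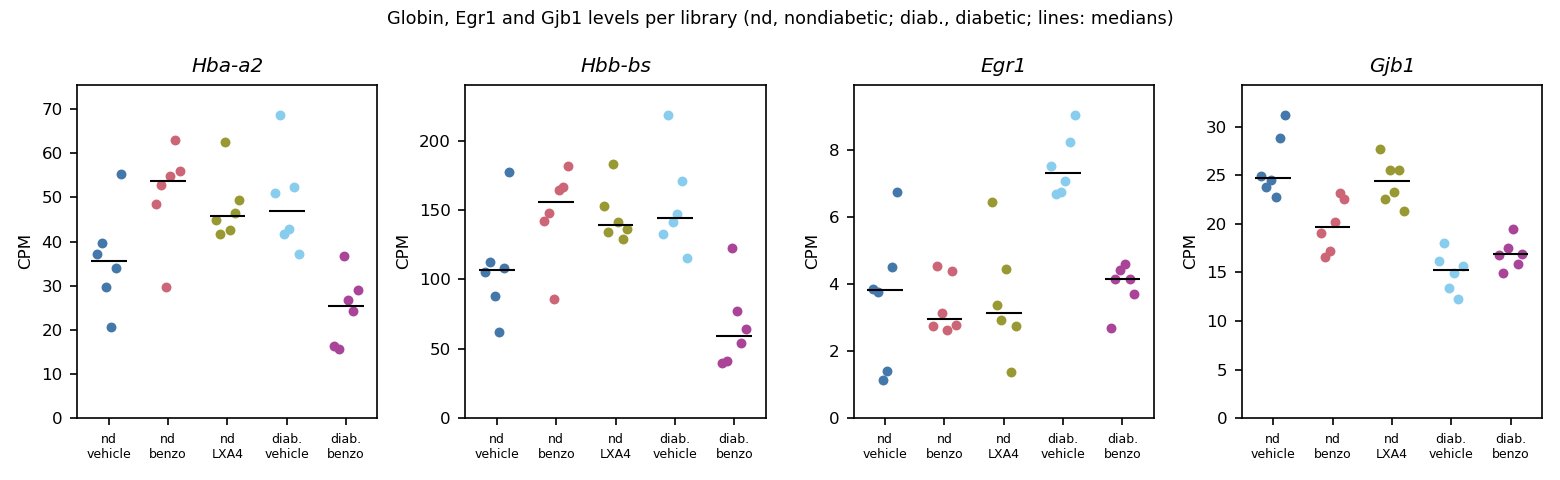
CPM per library of Hba-a2, Hbb-bs, Egr1 and Gjb1 (vertical axes, from 0) in nondiabetic mice given vehicle, benzo-LXA4 or LXA4 and in diabetic mice given vehicle or benzo-LXA4; lines are medians of 6. Hba-a2 medians are 35.6 and 53.8 CPM with vehicle and benzo-LXA4 in nondiabetic mice and 46.9 and 25.5 CPM in diabetic mice.

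Over all genes the interaction of benzo-LXA4 with diabetes called 0 genes (0%, smallest adjusted p 0.888), and 673 (4.28%) had an unadjusted p under 0.05. In diabetic mice benzo-LXA4 against vehicle called 0 genes (0%, smallest adjusted p 0.179), and 891 (5.67%) had an unadjusted p under 0.05. Egr1 stood at 2.69, 4.16 and 4.61 CPM with benzo-LXA4 and 6.71, 7.32 and 9.06 CPM with vehicle in diabetic mice, without overlap (log2 −0.93, adjusted p = 0.414), whereas it overlapped fully in nondiabetic mice. The interaction of −0.81 had an interval of −1.64 to 0.02 (unadjusted p = 0.055, adjusted p = 0.9999), so a difference between the 2 states was not shown for Egr1.

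Of the 8 erythroid genes, 7 had an unadjusted p under 0.05 for the interaction, against 4.28% of all genes. Other lists also exceeded that share. They included 18 of 31 brown fat genes, 7 of 24 immediate early genes, 7 of 22 collecting duct markers and 5 of 19 smooth muscle markers. Benzo-LXA4 replicate 1, with its fat transcripts, enters the interaction as well. The other genes among the 5 with the smallest interaction p were Myl9, Srpx and Fam169b. For Myl9 the interaction was −0.69 (−1.03 to −0.35, unadjusted p = 2.5e-04), with log2 differences of 0.33 without and −0.35 with diabetes. Srpx, a secreted protein with sushi repeats, stood at 0.910, 1.5 and 1.75 CPM with benzo-LXA4 and at 0.801, 0.921 and 1.13 CPM with vehicle in nondiabetic mice (log2 0.59, 0.14 to 1.03), and its difference with diabetes was −0.66, an interaction of −1.24 (−1.86 to −0.62). Fam169b differed by −0.19 without and 0.37 with diabetes, an interaction of 0.57 (0.27 to 0.86). All 5 had an adjusted p of 0.888.

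Gjb1, Pck1 and Slc16a14, given here after their values were seen, had interaction values opposite in sign to their difference in nondiabetic mice. The interaction subtracts that nondiabetic difference. An opposite sign is thus favoured in genes picked for a large one, and it adds no separate evidence. In diabetic mice Gjb1 stood at 14.9, 16.9 and 19.5 CPM under benzo-LXA4 and at 12.3, 15.3 and 18 CPM under vehicle. Its interaction was 0.56 (0.25 to 0.88, unadjusted p = 9.7e-04), with differences of −0.40 without and 0.17 with diabetes. For Pck1 it was 1.07 (0.31 to 1.82), with differences of −0.53 and 0.54, and for Slc16a14 it was 1.27 (0.43 to 2.11), with −0.88 and 0.39. The adjusted p was 0.888 for Gjb1, 0.890 for Slc16a14 and 0.899 for Pck1, so none passed.

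LXA4 itself, given at the different dose of 5 µg/kg, is represented by 6 further nondiabetic libraries and was compared with the same vehicle libraries, so its values are set side by side without a test between the compounds. LXA4 also called 0 genes (0%, smallest adjusted p 0.314), and 967 (6.15%) had an unadjusted p under 0.05. Hsd11b1 differed from vehicle by 0.39 with benzo-LXA4 and by 0.39 with LXA4, Gabbr2 by 0.69 and 0.54, and Hba-a2 by 0.49 and 0.41. Both differences subtract the same vehicle values. A matching sign is thus favoured in genes picked by their benzo-LXA4 difference, and it adds no separate evidence. Gjb1 differed by −0.40 and −0.10, Slc16a14 by −0.88 and 0.10, and Egr1 by −0.12 and −0.04. Kcnk3 differed by 3.75 and 1.07; LXA4 replicates 2 and 5 held 255 and 331 Ucp1 counts and the other 4 at most 1, so fat transcripts were also found in that group.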

How the data were processed

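Gene-level read counts of 36 kidney cortex libraries (6 groups of 6) were used as deposited by the authors, as whole numbers without normalization. Per the labels' protocols, RNA from Trizol homogenates went through ribosomal RNA depletion before strand-specific library preparation. The submitters' processing notes name bcl2fastq 2.17.1.14, STAR, featureCounts and the mouse build GRCm38; the annotation release, strand setting and handling of multiply mapped reads were not given in the sources used here. Such settings bear on near-identical and antisense genes. All 36 columns matched a sample by name, and 15,697 of 15,730 gene IDs were found in GENCODE M21, which gave the coordinates. No 2 libraries of a group among 30 pairs held identical counts or agreed within sampling noise (lowest chi-square per degree of freedom 15.8).

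Genes were filtered with filterByExpr, scaled by TMM and tested with edgeR 4.0.16 in R 4.3.3 (quasi-likelihood F test, all 6 groups in 1 model, so that they share an estimate of the spread, Benjamini-Hochberg adjustment over 15,726 genes, threshold 0.05). limma 3.58.1 and DESeq2 1.42.0 gave alternatives. The script was tested on simulated data. The alternatives covered the libraries in the fit, the scaling, the filter on low counts, the tool, a replicate block and each library left out in turn; 2 further sets of left-out libraries were chosen after seeing the data. Same-numbered libraries of the 2 groups correlated in their deviations at r = 0.12 to 0.45 in all 6 pairs, which was taken to pair the numbers, although only 3 of 6 correlated best with their own number and the labels do not say what a number shares.

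Genes named were Apoe, Egr1, its relatives and the eicosanoid genes, the 12 higher and 12 lower genes with the smallest p, up to 4 genes with the smallest p of each of 47 lists, the 5 with the smallest interaction p, and the 5 highest genes of a list from another tissue that 1 library raised; other names are marked, and some genes that the rule names are not reported here. The comparison and the lists were chosen with earlier results of these data known.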

Additional observations from a re-analysis of the deposited data

Results flagged for a closer look

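The sets of 6 values examined numbered 246 (105 genes in each group, library shares and summed marker lists). In 51 of them the distance of a library from the nearest other exceeded the 95% limit of Dixon's test. The 5% rate of that limit gives no yardstick here. Many genes were named for a small p or from the brown fat list, the sets vary together, and 2 libraries were singled out beforehand. Benzo-LXA4 replicate 1 was that library in 29, vehicle replicate 3 in 7 and other libraries in 15. Values are CPM, with the median of the other 5 libraries of the group after "against".

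In benzo-LXA4 replicate 1 the summed brown fat list stood at 10,900 against 2710. Adipocyte genes were at or near 0 elsewhere: Ucp1 122 against 0.033, Plin1 74.5 against 0.033, Cidea 65.6 against 0.0414, Adipoq 37.4 against 0, Cox8b 18.6 against 0, Adrb3 25.2 against 0.0414, Nat8l 17.6 against 0.0661 and Cfd 150 against 0.033. Genes of fat synthesis and sugar use were Fasn at 2670 against 102, Scd1 2710 against 143, Acaca 321 against 55.2, Thrsp 184 against 1.75, Pnpla3 22.3 against 1.65, Hk2, a hexokinase, 47.9 against 1.1, Ppp1r3b 16.7 against 1.59 and G6pdx 37.2 against 23.1. Other high genes were Kcnk3 at 55.9 against 1.12, Mrap 11.3 against 0.163, Aoc3 21.1 against 1.41, Rbp4 8.84 against 0.396, Adam12 127 against 45.7, Postn 7.83 against 0.621, Nr4a3 3.75 against 0.535, the p53 target Phlda3 11.9 against 2.15, Cfp 4.91 against 3.17 and Rgs5 50.9 against 28.9. This library was low in Csf1r, at 33.5 against 48.1, and in Alox12, at 1.91 against 3.12.

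In vehicle replicate 3 the share of structural RNA was 17.7% against 2.44%, the adrenal pair of genes summed to 167 against 51.9 and the podocyte markers to 1740 against 2400. Brf2 stood at 7.55 against 5.16, Nufip1 at 17.7 against 14.9, Pdcl at 21.3 against 18 and Phlda3 at 5.61 against 1.68. Brf2, Nufip1 and Pdcl were lower in each benzo-LXA4 library than in the other 5 vehicle libraries too.

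Vehicle replicate 2 was high in Ucp1 (1.99), Plin1 (2.18), Cidea (1.5), Cox8b (0.533), Adrb3 (0.533) and Nat8l (0.533). Vehicle replicate 5 was high in Fn1 (32.1) and Cyp1a1 (0.943). Vehicle replicate 4 was high in Klf4 (5.37) and in the loop and distal tubule markers, which summed to 13,000 against 10,400. Benzo-LXA4 replicate 2 was high in Gabbr2 (2.27) and Nufip1 (13.6), replicate 4 in Igsf10 (3.70) and Jchain (5.16), and replicate 6 was low in the smooth muscle markers, at 655 against 742.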

How the results depend on the processing

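After adjustment, 0 genes passed in each of the 12 fits that left out 1 library and in every other alternative except DESeq2, which called 2 genes, both of them members of the lists (Kcnk3 at 3.68 and Thrsp at 3.89). The fit with a replicate block for the pairing of numbers called 0 genes, had 389 genes at an unadjusted p under 0.05 and changed no call. That unadjusted count, 452 as reported, was 234 without benzo-LXA4 replicate 1 and vehicle replicate 3, 225 among genes of at least 5 CPM, where fewer genes were tested, 865 without diabetic lipoxin replicate 6, 966 with voom and quality weights, and 307 to 746 with each library left out in turn. For the interaction, 673 as reported, it was 441 at 5 CPM, 1238 without diabetic lipoxin replicate 6 and 1360 with voom. Genes without overlap numbered 71 without the 2 libraries and 8 at 5 CPM, against 17. The cause of the changes under voom and without diabetic lipoxin replicate 6 was not tested.

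Of 2359 log2 values of 105 named genes under alternatives, 2321 kept their direction and side of the threshold. No gene passed as reported, so a value could change side only by passing. The alternatives also share most of the libraries compared, so this count is not a set of independent checks. The sign turned for Lta4h at 0.00298 with only the 2 groups fitted, 0.00402 at 5 CPM and 0.000528 with library sizes without structural RNA and fat genes. It turned without benzo-LXA4 replicate 1 and vehicle replicate 3 for Ptgs1 (−0.063), Lpl (−0.12) and Nr4a3 (−0.20), and with voom for Lpl (−0.060) and Nr4a3 (−0.12). Without the 3 libraries that held the most Ucp1 counts it turned for Hpgd (0.098), Thrsp (−0.11), Mrap (−0.28), Nat8l (−0.95), Ucp1 (−1.58), Plin1 (−0.12), Adipoq (−0.65), Lpl (−0.055), Hk2 (−0.18), Nr4a3 (−0.20) and Cfd (−0.29). With 1 library left out the values ran from −0.36 to 0.055 for Cxcl10, −0.29 to 0.15 for Egr1, −0.11 to 0.0021 for Hpgd, −0.088 to 0.13 for Lpl, −0.062 to 0.019 for Lta4h, −0.17 to 1.16 for Nr4a3, −0.053 to 0.54 for Ptger3 and −0.036 to 0.077 for Ptgs1. Of 1078 list medians, 10 moved by more than their spread between libraries. Depth limits the low genes: below 5 CPM, 3598 of 4665 intervals lay within a 2-fold change.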
